A study of Mus musculus with 8 samples.

Results

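Untreated peritoneal macrophages of mice without a functional creatine transporter gene were set against those of wild-type mice, with 1 RNA sequencing library on each side. These are 2 of the 8 libraries of the series. Of 15842 genes listed in either library, 7594 reached 5 FPKM (fragments counted per length of transcript, scaled to the library's total) in at least one of them and were measured, 7476 of them protein-coding; 35 small RNA genes of the Mir and Snor families at or above that level were left out. Just inside the limit lay Thtpa, at 4.85 FPKM in KO and 5.0 FPKM in WT, and just outside it Khnyn, at 4.99 FPKM in KO and 4.12 FPKM in WT.

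The KO library came from Slc6a8-/y mice and the WT library from wild-type mice, both on a C57BL/6 background. In both groups the cells were elicited by an intraperitoneal injection of 1 ml of 4% thioglycollate, collected 3 to 4 days later and given no cytokine. The labels give neither the age of the mice nor how many were used, and name no promoter, Cre line or deleted exon for the Slc6a8 allele. They do not say whether the libraries of one genotype came from the same animals. Beside this pair, KO and WT peritoneal macrophages given IFN-gamma (10 ng/mL for 12 hours) and KO and WT untreated bone marrow-derived macrophages (5 days in 10% M-CSF) were used to show the same genes in libraries that the untreated peritoneal pair does not contain. With 1 library a group no difference has a replicate check. The values are therefore sizes without a test, and "higher" and "lower" name the order of these libraries only.

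Slc6a8 is the creatine transporter of the plasma membrane, encoded on the X chromosome, and carries creatine into the cell with sodium and chloride. Creatine kinases pass phosphate between ATP and creatine, so that phosphocreatine serves as a store of high-energy phosphate, and creatine is also counted with betaine and taurine among the organic osmolytes. Thioglycollate-elicited peritoneal macrophages derive largely from recruited blood monocytes and are large, lipid-laden, strongly phagocytic cells.

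Few genes differed between the untreated libraries. The complement genes C1qa, C1qb and C1qc, the chemokine gene Ccl6, Gdf15 and Cd5l were more than 2-fold lower in KO than in WT on the FPKM scale, and the osmolyte transporter gene Slc6a12 and the organic anion transporter gene Slco4a1 were more than 2-fold higher. On the scale of log2(FPKM + 1), KO over WT, 12 genes were at least 2-fold higher (0.158% of those measured) and 13 at least 2-fold lower (0.171%), so that 48.0% of these genes were higher. After TMM scaling of the same values the split was 9 higher against 15 lower, with 37.5% higher. Among protein-coding genes 10 were 2-fold higher (0.134%) and 11 lower (0.147%). At 1.5-fold the counts were 46 genes higher (0.606%) and 74 lower (0.974%), of which 37 (0.495%) and 68 (0.91%) were protein-coding, and 98.4% of all genes lay within that range. The median log2 ratio of all genes was 0.025 and their SD 0.251. The FPKM + 1 scale understates the ratios of genes near the 5 FPKM limit.

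**Figure D1:**
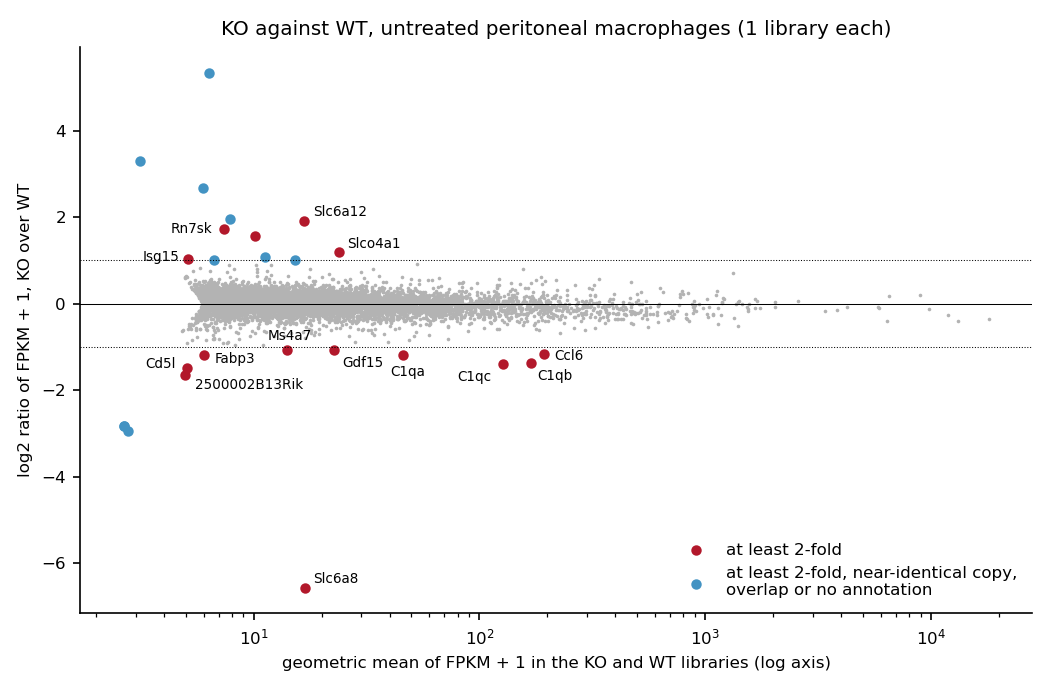
Log2 ratio of FPKM + 1, KO over WT, for each gene measured in untreated peritoneal macrophages (y axis) against the geometric mean of FPKM + 1 in the KO and WT libraries (x axis, log scale). Grey points are the other genes, red points the genes at least 2-fold apart and blue points those at least 2-fold apart that share reads with a near-identical copy or an overlapping gene or are not in the annotation; dotted lines mark 2-fold. Most points hug 0 at every level, while C1qa, C1qb, C1qc and Ccl6 lie at or beyond the lower line at high expression.

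Both libraries were of like depth, with a total expected count of 10940358 in KO and 10812678 in WT. A gene near 5 FPKM had a median of 169.0 counts in KO and 155.4 counts in WT. The 50 most abundant genes took 27.0% of the KO counts and 27.9% of the WT counts. Macrophage genes were high in both, with Cd68 at 2626 FPKM in KO and 2536 FPKM in WT and Csf1r, the M-CSF receptor gene, at 117 FPKM in KO and 110 FPKM in WT. The Y-linked genes Ddx3y (11.5 FPKM in KO, 10.65 in WT) and Eif2s3y (14.3 FPKM in KO, 15.04 in WT) were expressed in both and Xist was at 0.01 FPKM in both.

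The targeted gene itself matched the labels. Slc6a8 (chromosome X, 73673133 to 73682502, GRCm38) was at 0.73 FPKM in KO and 164 FPKM in WT, from 32 and 7089 expected counts. The count ratio was 0.00446, with a 95% interval of 0.00305 to 0.0063. This interval and the others below are exact conditional binomial intervals on the rounded counts and cover counting error only. Copies of a fragment made by PCR are not independent molecules, so the intervals can be too narrow even for counting error. The gene was low in the other KO libraries as well, at 0.18 FPKM in KO and 39.5 FPKM in WT after IFN-gamma, and at 1.71 FPKM in KO and 97.3 FPKM in WT bone marrow-derived macrophages. Among 34 listed X chromosome neighbours, Slc6a8 included, 24 were measured and their median log2 ratio was -0.04, with 10 higher and 14 lower in KO.

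Genes of creatine synthesis and storage were slightly higher in the KO library where they were measured. Gatm, the first enzyme of creatine synthesis, was at 10.2 FPKM in KO and 6.97 FPKM in WT, a log2 ratio of 0.49. In the IFN-gamma pair this ratio was -0.50 and in bone marrow-derived cells 0.18, so its sign was not shared by the 3 pairs. Gamt, the second enzyme, was at 7.79 FPKM in KO and 7.38 FPKM in WT. Ckb, the brain-type creatine kinase, was at 136 FPKM in KO and 104 FPKM in WT, a log2 ratio of 0.39. The remaining 4 listed genes of creatine handling were under 5 FPKM or not listed, among them Ckm at 0 FPKM in KO and 0.13 FPKM in WT. None of the 3 genes other than Slc6a8 was 1.5-fold apart.

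Of the protein-coding genes in rows of their own, Slc6a12 had the highest ratio. It encodes a sodium- and chloride-dependent transporter of betaine and GABA in the same family as Slc6a8, and its transcription is raised in hypertonic medium by the factor NFAT5. It was at 31.6 FPKM in KO and 7.63 FPKM in WT (889 and 212 counts), a log2 ratio of 1.92 and a count ratio of 4.14 (95% interval 3.56 to 4.84). The levels after IFN-gamma were lower in both genotypes, 4.75 FPKM in KO and 0.56 FPKM in WT, under the 5 FPKM limit in both; the log2 ratio there was 1.88, and the added 1 FPKM shrinks it the more at such levels, so its size cannot be set beside 1.92. In bone marrow-derived macrophages the levels were 6.70 FPKM in KO and 5.47 FPKM in WT, a log2 ratio of 0.25. Slc6a12 was therefore higher in KO in each pair, with a large difference in the untreated peritoneal pair and a small one in the bone marrow-derived pair.

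The 250 bases before the first listed start of Slc6a12 are shown because the gene led the higher side. They are RefSeq sequence of GRCm38.p6 at chr6:121342324-121342573 on the plus strand, printed from 5′ to 3′. Capitals mark TGGAAA, the core of the tonicity-responsive element bound by NFAT5, which begins 75 bases before the start. The table holds 5 starts for this gene, and the others are not shown.
Slc6a12: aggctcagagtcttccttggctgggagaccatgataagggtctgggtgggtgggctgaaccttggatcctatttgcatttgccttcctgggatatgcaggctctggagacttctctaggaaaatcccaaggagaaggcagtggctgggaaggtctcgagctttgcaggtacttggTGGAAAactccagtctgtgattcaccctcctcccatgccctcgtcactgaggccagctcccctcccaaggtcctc
TGGAAA, searched on both strands, was present in 18.6% of the 32851 promoter windows of the same length, so a match in 1 window is a description and not a binding site.

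The rest of the osmolyte and tonicity list was only slightly apart. With Slc6a12 included, all 12 measured members of 17 were higher in KO, where 55.3% of all genes were. Their median log2 ratio was 0.15 against 0.025 for all genes, and only Slc6a12 passed 1.5-fold. Of the members under 5 FPKM, Hspa1a (-0.27) and Aqp1 (-0.29) were lower and Slc5a3 (0.58) and Hspa1b (0.13) higher. After the centring by transcript length and GC content described below, 10 of the 12 were higher and Slc6a6 (-0.04) and Wnk1 (-0.06) were lower. Slc38a2, a neutral amino acid transporter of the same response, was at 100.05 FPKM in KO and 70.15 FPKM in WT. Nfat5 itself was at 8.47 FPKM in KO and 5.68 FPKM in WT, and the taurine transporter gene Slc6a6, the only other member of its family measured beside Slc6a8 and Slc6a12, at 289 FPKM in KO and 279 FPKM in WT. In the IFN-gamma pair the list's median was -0.12, with 5 of 11 members higher. Of the 19 listed genes of the Slc6 family, 16 were under 5 FPKM or not listed.

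Slco4a1, which carries organic anions such as thyroid hormone, was at 35.05 FPKM in KO and 14.75 FPKM in WT, a log2 ratio of 1.19 and a count ratio of 2.37 (2.14 to 2.64). Its ratio was 1.95 in the IFN-gamma pair, at 6.87 FPKM in KO and 1.04 FPKM in WT, and 0.38 in the bone marrow-derived pair. The other measured transporters of organic anions and amino acids had no common direction, with 5 of 12 higher in KO, Slco4a1 included. The lowest was Slc43a2, an amino acid transporter, at 13.9 FPKM in KO and 22.5 FPKM in WT (log2 ratio -0.66; -1.41 in the IFN-gamma pair).

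Isg15, the ubiquitin-like protein induced by type I interferon, was the last of the 4 protein-coding genes that were 2-fold higher without a near-identical copy or a partner that covers them. It was at 6.35 FPKM in KO and 2.60 FPKM in WT from only 51 and 21 counts, with a count ratio of 2.4 (1.42 to 4.2). Its log2 ratio of 1.03 was under 2-fold after TMM scaling (0.99), in CPM of protein-coding genes (0.96) and with a pseudocount of 5 FPKM (0.58). The list of type I interferon response genes did not follow it closely. Of 15 measured members 10 were higher, where 55.3% of all genes were, and 5 lower, with a median of 0.12. The 23 others of the 38 listed were under 5 FPKM or not listed. With a limit of 10 FPKM in place of 5 the median was -0.14, so the list has no direction that holds across limits. Oas3, a sensor of double-stranded RNA, was at 6.38 FPKM in KO and 4.32 FPKM in WT, and Siglec1, a sialic acid receptor, at 13.1 FPKM in KO and 17.4 FPKM in WT. In the IFN-gamma pair the same list had a median of 1.06, with 14 of 15 higher in KO. Gbp2, a guanylate-binding protein induced by IFN-gamma, was at 13 FPKM in KO and 6.53 FPKM in WT (log2 ratio 0.89). With IFN-gamma it reached 3428 FPKM in KO and 3400 FPKM in WT. The 8 measured IFN-gamma induced genes had a median of 0.14, with 6 higher.

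The next genes on the higher side fell short of 2-fold on this scale. Cxcr1, a chemokine receptor, was at 9.58 FPKM in KO and 4.68 FPKM in WT. Htr2b, a serotonin receptor, was at 6.67 FPKM in KO and 3.35 FPKM in WT and shares 11.8% of its exonic bases with Psmd1, which was at 43.8 FPKM in KO and 43.3 FPKM in WT. Reads from the shared stretch cannot be assigned to either gene, since the labels do not give strand. Tspan7, a tetraspanin, was at 12.7 FPKM in KO and 6.79 FPKM in WT. The most abundant was Tm4sf19, a 4-span membrane protein, at 206 FPKM in KO and 118 FPKM in WT, with log2 ratios of 0.80 here, 1.19 in the IFN-gamma pair and 0.23 in the bone marrow-derived pair.

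**Figure D2:**
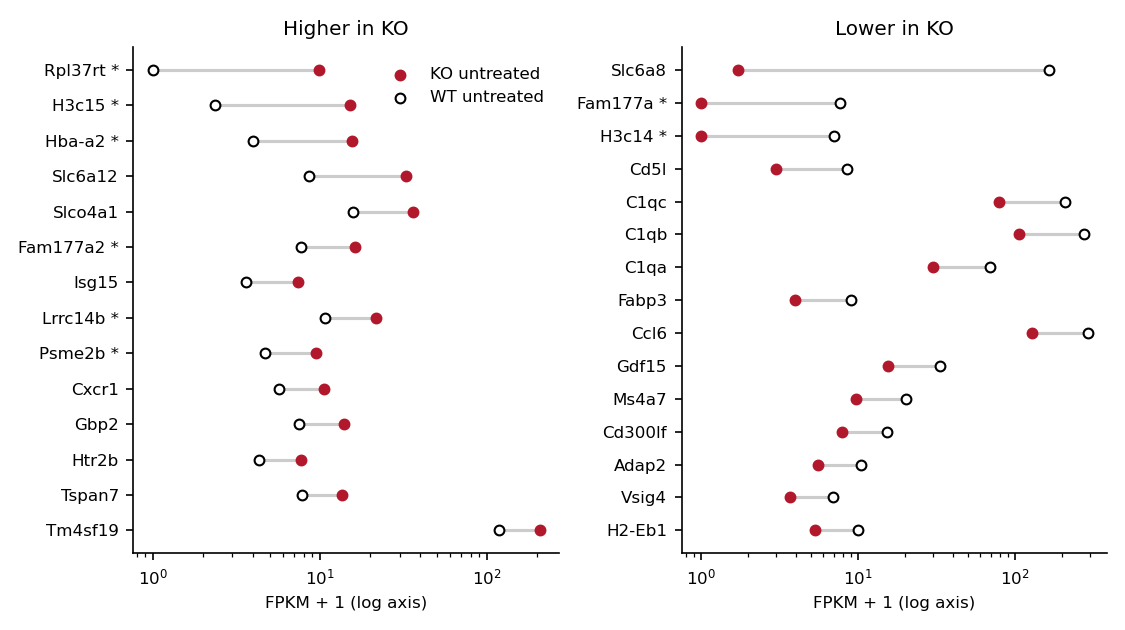
FPKM + 1 (x axis, log scale) of named protein-coding genes with the highest log2 ratios (left) and the lowest (right); filled red points are the KO library, open points the WT library, and the grey line joins them. An asterisk marks a gene that shares reads with a near-identical copy or a gene that covers it. Slc6a8 spans the widest gap, and among genes of over 100 FPKM in WT the gaps of C1qb, C1qc and Ccl6 run to the left while that of Tm4sf19 runs to the right.

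C1q is the recognition molecule of the classical complement pathway, built from the chains encoded by C1qa, C1qb and C1qc, which lie side by side on chromosome 4 and are made mostly by macrophages. All 3 chains were lower in the KO library. C1qc was at 77.5 FPKM in KO and 207 FPKM in WT (885 and 2333 counts), a log2 ratio of -1.40 and a count ratio of 0.375 (0.347 to 0.405). C1qb was at 104 FPKM in KO and 273 FPKM in WT (1191 and 3083 counts), a log2 ratio of -1.38 and a count ratio of 0.382 (0.357 to 0.408). C1qa was at 29.1 FPKM in KO and 68.3 FPKM in WT (338 and 785 counts), a log2 ratio of -1.20 and a count ratio of 0.426 (0.373 to 0.484). The 3 intervals stay well under 1 and overlap one another.

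The C1q difference kept its sign in both other pairs and differed in size. With IFN-gamma, C1qb was at 829 FPKM in KO and 1594 FPKM in WT, and the log2 ratios of C1qa, C1qb and C1qc were -0.92, -0.94 and -1.05. In untreated bone marrow-derived macrophages, where C1qb was at 1721 FPKM in KO and 1881 FPKM in WT, they were -0.43, -0.13 and -0.17. The untreated peritoneal libraries thus had the lowest C1q levels and the widest gap of the 3 pairs.

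The 250 bases before the RefSeq start are printed for C1qb and C1qc, the neighbours with nearly equal ratios, so that they can be set side by side. Both are GRCm38.p6 sequence read 5′ to 3′ on the minus strand, C1qb from chr4:136886201-136886450 and C1qc from chr4:136892915-136893164. The annotated C1qc gene reaches 136892936, so the last bases of its window lie inside the gene. Its distances below are counted from the start that the window precedes. Capitals mark GAGGAA or its reverse complement TTCCTC, the core bound by the myeloid factor PU.1, TGCTGA, a half-site of MAF factors, and TGGAAA as above.
C1qb: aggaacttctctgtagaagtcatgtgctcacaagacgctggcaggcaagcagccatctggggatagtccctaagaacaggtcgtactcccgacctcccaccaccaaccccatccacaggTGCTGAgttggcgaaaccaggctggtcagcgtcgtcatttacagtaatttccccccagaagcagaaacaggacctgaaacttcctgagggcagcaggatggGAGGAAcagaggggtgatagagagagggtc
C1qc: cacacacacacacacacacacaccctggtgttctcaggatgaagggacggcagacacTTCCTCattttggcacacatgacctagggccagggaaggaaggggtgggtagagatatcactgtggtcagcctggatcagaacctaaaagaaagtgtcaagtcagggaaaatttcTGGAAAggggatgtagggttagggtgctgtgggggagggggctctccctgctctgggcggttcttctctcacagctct
In the C1qb window TGCTGA began 131 bases and GAGGAA 30 bases before the start. In the C1qc window TTCCTC began 193 bases and TGGAAA 78 bases before it. On either strand, GAGGAA was present in 23.3% of the 32851 windows and TGCTGA in 16.1%. Of the 12 genes named on the lower side that have a window in the table, 6 held GAGGAA, 3 held TGCTGA and 3 held TGGAAA. Of the 13 such genes on the higher side 2 held GAGGAA, none held TGCTGA and 2 held TGGAAA. The shares of all 27025 genes were 25.9% for GAGGAA, 18% for TGCTGA and 20.9% for TGGAAA. These are descriptions of short strings, and no factor was measured at them. The mRNA of Spi1, which encodes PU.1, was at 258 FPKM in KO and 279 FPKM in WT, and that of Maf at 17.96 FPKM in KO and 19.55 FPKM in WT.

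The other complement genes were split. Of 14 measured of 20 listed, 8 were lower and 6 higher, the median was -0.27, and 4 were at least 1.5-fold lower, where 0.974% of all genes were. The fourth was C5ar1, the receptor of the C5a fragment, at 28.7 FPKM in KO and 47.3 FPKM in WT. Properdin, encoded by Cfp, was at 13.2 FPKM in KO and 19.4 FPKM in WT. C3 was nearly equal, at 45.5 FPKM in KO and 44.1 FPKM in WT. The genes below 1.5-fold included those of the protective surface proteins Cd55 and Cr1l, whose log2 ratios were 0.19 and 0.13.

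The other genes at least 2-fold lower were Ccl6, Gdf15, Cd5l, Ms4a7 and Fabp3. Ccl6, a chemokine for myeloid cells, was at 128 FPKM in KO and 289 FPKM in WT (1986 and 4444 counts), a count ratio of 0.442 (0.419 to 0.466). Gdf15, a stress-induced member of the TGF-beta superfamily, was at 14.6 FPKM in KO and 32.0 FPKM in WT, a count ratio of 0.455 (0.377 to 0.548), and the log2 ratios of the 3 pairs were -1.08, -1.0 and -0.21 in the order untreated peritoneal, IFN-gamma peritoneal and bone marrow-derived. In the untreated peritoneal pair it was under 2-fold after centring by GC and length (-0.96) and with a pseudocount of 5 FPKM (-0.92). With that pseudocount Cd5l (-0.84), Ms4a7 (-0.84) and Fabp3 (-0.71) were under 2-fold as well. Cd5l, a secreted protein of tissue macrophages, was at 2.02 FPKM in KO and 7.54 FPKM in WT from 45 and 166 counts. Ms4a7, a surface protein of the Ms4a family, was at 8.65 FPKM in KO and 19.35 FPKM in WT; its log2 ratio of -1.08 stood against 0.76 in the IFN-gamma pair. Fabp3, a fatty acid-binding protein, was at 2.99 FPKM in KO and 8.05 FPKM in WT from only 21 and 56 counts. It shares 9.8% of its exonic bases with Zcchc17 on the other strand, whose log2 ratio was 0.13.

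The next genes on the lower side fell short of 2-fold on this scale. Cd300lf, an inhibitory receptor, was at 6.89 FPKM in KO and 14.35 FPKM in WT, with a log2 ratio of -0.96 here and -1.09 in the IFN-gamma pair. Vsig4, a complement receptor of resident macrophages, was at 2.71 FPKM in KO and 5.93 FPKM in WT. Adap2, which binds phosphoinositides and activates ARF GTPases, was at 4.57 FPKM in KO and 9.41 FPKM in WT, and its ratio in the IFN-gamma pair was 0.43.

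Several other rows passed 2-fold but cannot be read alone, because RSEM divides reads between near-identical genes. The summed counts of such genes were close to equal in 4 cases. Fam177a and Fam177a2 together had 648.2 counts in KO and 564.2 in WT, Psme2b and Psme2 642.4 in KO and 686.3 in WT, Rpl37rt and Rpl37 1856 in KO and 1918 in WT, and Rpl14-ps1 and Rpl14 2365 in KO and 2505 in WT. The sums stayed apart for the histone genes H3c14 and H3c15 (96.1 counts in KO, 51.0 in WT), for the alpha globin genes Hba-a1 and Hba-a2 (281 in KO, 166 in WT), and for Lrrc14b with Ccdc127, which covers all of its exons on the other strand (1491 in KO, 863 in WT). Gm14430, at 0 FPKM in KO and 6.07 FPKM in WT, is not in the annotation used. The non-coding genes past 2-fold were Rn7sk, the RNA of the 7SK complex, at 12.5 FPKM in KO and 3.08 FPKM in WT from 41 and 10 counts, and the long non-coding RNA 2500002B13Rik, at 1.80 FPKM in KO and 7.72 FPKM in WT from 10 and 28 counts. Of the 25 genes past 2-fold, 5 higher and 10 lower remained without the copies, the covered gene and the gene with no annotation.

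Genes of antigen presentation on MHC class II were lower as a list. Of 9 measured of 13 listed, 8 were lower, where 44.6% of all genes were, and 3 were at least 1.5-fold lower (0.974% of all genes). The median was -0.40, but -0.23 with a limit of 10 FPKM and also -0.23 with no limit. After centring by transcript length and GC content, described below, 6 of the 9 were lower and the median was -0.36. H2-Eb1, a beta chain, was at 4.35 FPKM in KO and 8.95 FPKM in WT, H2-DMa, a chain of the peptide editor, at 3.49 FPKM in KO and 5.83 FPKM in WT, and H2-Ab1 at 13.3 FPKM in KO and 20.5 FPKM in WT. The invariant chain gene Cd74 was nearly equal, at 113 FPKM in KO and 119 FPKM in WT, and Ciita, the master regulator of the class, was at 0.21 FPKM in both. In the IFN-gamma pair the median was -0.17 and in bone marrow-derived cells -0.05. Of the MHC class I and immunoproteasome genes 16 of 19 measured were lower, with a median of -0.20. The largest gap there was at Psmb9, a subunit of the immunoproteasome, at 5.73 FPKM in KO and 9.81 FPKM in WT.

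Lipid synthesis genes were also mostly lower, most of them by less than 1.5-fold. Of 23 measured genes of cholesterol synthesis and uptake 20 were lower, where 44.6% of all genes were, with a median of -0.29. Only 1 was at least 1.5-fold lower, where 0.974% of all genes were. Fdps, the farnesyl diphosphate synthase, was at 32.5 FPKM in KO and 46.75 FPKM in WT, and Sqle, the squalene epoxidase, at 10.4 FPKM in KO and 14.35 FPKM in WT. In the IFN-gamma pair 12 of 23 were lower and the median was -0.02, while in bone marrow-derived cells 21 of 22 were lower with a median of -0.19. Of the fatty acid synthesis genes 9 of 10 measured were lower, against the same 44.6%, with a median of -0.23, and 1 was at least 1.5-fold lower. Scd2, a stearoyl-CoA desaturase, was at 11.8 FPKM in KO and 21.2 FPKM in WT and was lower in all 3 pairs, with log2 ratios of -0.79, -1.07 and -0.58.

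The list of inflammatory and NF-kB target genes showed little difference in the untreated cells. Il1rn, Cxcl5 and Mmp12, given below from other lists, were more than 1.5-fold higher in KO. Of 15 measured NF-kB targets 11 were higher, where 55.3% of all genes were, with a median of 0.10, and none was 1.5-fold apart. Cd14, the co-receptor for lipopolysaccharide, was at 134 FPKM in KO and 105 FPKM in WT, and Icam1, an adhesion molecule, at 14.5 FPKM in KO and 10.8 FPKM in WT. Il1rn, the antagonist of the IL-1 receptor, was at 43.6 FPKM in KO and 24.8 FPKM in WT, with log2 ratios of 0.79 here, 1.67 in the IFN-gamma pair and -0.66 in bone marrow-derived cells. Cxcl5, a chemokine for neutrophils, was at 9.83 FPKM in KO and 5.22 FPKM in WT. The macrophage elastase gene Mmp12 was at 1688 FPKM in KO and 1039 FPKM in WT, a log2 ratio of 0.70. Vegfa, the vascular growth factor, was at 5.5 FPKM in KO and 10.4 FPKM in WT, and its log2 ratio of -0.81 was -0.87 in the IFN-gamma pair.

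**Figure D3:**
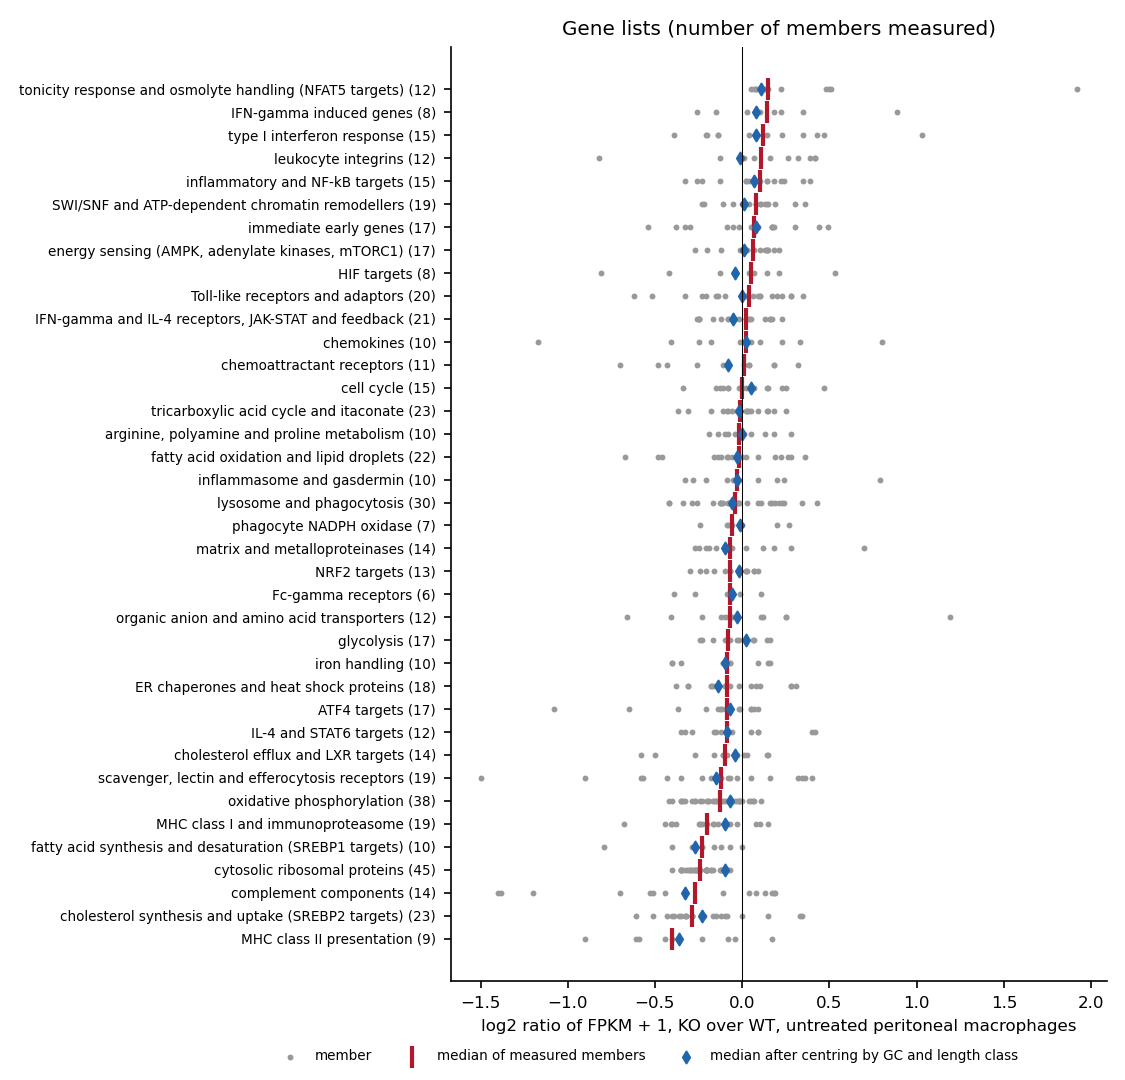
Log2 ratios of FPKM + 1, KO over WT, in untreated peritoneal macrophages for the members of each functional gene list with at least 6 measured members (grey points), with the list's median (red bar) and its median after centring by GC and length class (blue diamond). The number of measured members is in brackets, and Slc6a8 is not drawn. The medians run between -0.40 (MHC class II) and 0.15 (tonicity and osmolytes), and single genes, such as those of C1q, lie far outside the medians of their lists.

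Part of the spread between the libraries followed the length and base composition of transcripts. Genes with transcripts under 1 kb had a median log2 ratio of -0.14, and 71.1% of them were lower in KO, while genes of 4 kb and over had a median of 0.12 and 22.3% of them were lower. By GC content the medians were 0.11 under 45% and -0.08 at 55% and over. The IFN-gamma pair had medians of -0.16 and 0.04 at those lengths, and the bone marrow-derived pair ran the other way, with 0.05 and -0.02. Of the measured genes 99.7% had a GC value. The part of this trend in the results of single lists was not tested, and each ratio was therefore also taken minus the median of the genes in the same class of length and GC.

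**Figure D4:**
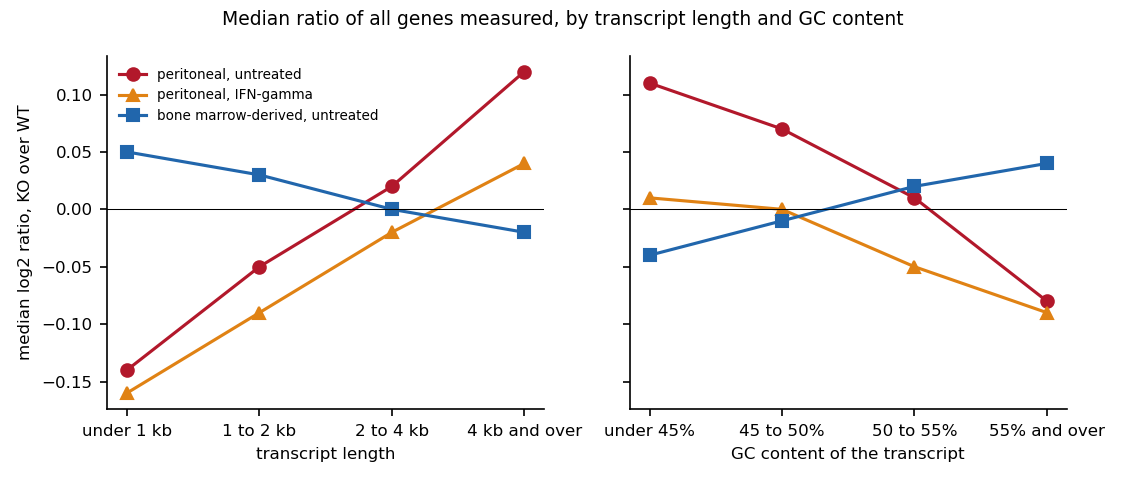
Median log2 ratio, KO over WT, of all genes measured in each of the 3 pairs (y axis) by class of transcript length (left) and of transcript GC content (right). In both peritoneal pairs the median is lower for short and GC-rich transcripts, and in the bone marrow-derived pair it is higher for them.

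Cytosolic ribosomal protein genes, short transcripts as a rule, moved with this centring. All 45 were lower in KO, between -0.40 and -0.07, with a median of -0.24; after centring the median was -0.10 and 40 were lower. Rplp1 was at 738 FPKM in KO and 941 FPKM in WT and Rps19 at 141 FPKM in KO and 186 FPKM in WT. In the IFN-gamma pair all 45 were lower with a median of -0.21, and in bone marrow-derived cells 35 were higher with a median of 0.02. Oxidative phosphorylation genes had a median of -0.13, with 33 of 38 lower, where 44.6% of all genes were. Their median after centring was -0.07. Cox8a, a subunit of cytochrome c oxidase, was at 157 FPKM in KO and 208 FPKM in WT. After centring, the medians of complement (-0.33), MHC class II (-0.36), cholesterol synthesis (-0.23), fatty acid synthesis (-0.27), MHC class I (-0.10) and tonicity genes (0.11) kept their signs. The members lower after it were 9 of 14 complement, 19 of 23 cholesterol synthesis, 10 of 10 fatty acid synthesis and 15 of 19 MHC class I genes. The C1q genes, with transcripts just over 1 kb, were at -1.08 for C1qa, -1.25 for C1qb and -1.28 for C1qc. Slc6a12 was at 1.91.

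Markers of other cell types gave the following levels beside these results. In bulk RNA, fewer cells of a type and less RNA per cell cannot be told apart. Defining genes of B cells (Pax5 at 0.08 FPKM in both), T cells (Cd3e at 0.06 FPKM in both), neutrophils (Ly6g at 0 in both), eosinophils (Epx and Prg2 at 0 in both) and dendritic cells (Flt3 at 0 in both) were at or near 0. The whole lists summed to 38.9 FPKM in KO and 42.2 FPKM in WT for B cells (12 genes), 347 FPKM in KO and 308 FPKM in WT for T and NK cells (16 genes), 24.5 FPKM in KO and 25.5 FPKM in WT for neutrophils (12 genes), 7.92 FPKM in KO and 5.86 FPKM in WT for eosinophils (8 genes), and 2.77 FPKM in KO and 3.11 FPKM in WT for dendritic cells (12 genes). In each of the first 4 of these lists 1 member was measured and held most of the sum: Cd22 (log2 ratio -0.19), Il7r (0.17), Csf3r (-0.34) and Siglecf (0.37). Mast cell and basophil genes summed to 3.47 FPKM in KO and 2.99 FPKM in WT, with no member measured. Mesothelium and fibroblast genes summed to 141 FPKM in KO and 151 FPKM in WT over 15 genes, with 6 of 8 measured members lower and Col1a1 at 30.7 FPKM in KO and 32.9 FPKM in WT. Erythroid and platelet genes summed to 90.2 FPKM in KO and 63.4 FPKM in WT over 12 genes, and globin genes made up most of the difference.

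Cd5l and Vsig4, both lower in KO, are also markers of resident large peritoneal macrophages, a list of 14 genes that summed to 201 FPKM in KO and 240 FPKM in WT. Saa3 held most of that sum, at 175 FPKM in KO and 206 FPKM in WT. Of the 4 measured members 3 were lower, where 44.6% of all genes were. Gata6, the factor that defines these cells, was at 5.87 FPKM in KO and 5.61 FPKM in WT, and Timd4, another defining gene, was at 0.04 FPKM in both. The list of monocytes and small peritoneal macrophages summed to 142 FPKM in KO and 149 FPKM in WT over 12 genes. All 3 of its measured members were lower as well, with a median log2 ratio of -0.23. Of the 11 measured genes of macrophage identity 5 were higher and 6 lower, with a median log2 ratio of -0.11. Cd68 and Csf1r, given above, were among the higher ones. Among the lower ones, Adgre1, which encodes F4/80, was at 34.1 FPKM in KO and 46.1 FPKM in WT. The lysozyme gene Lyz2, also lower, was at 5529 FPKM in KO and 7311 FPKM in WT. The part of a different mix of macrophages in the lower genes was not tested.

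The other KO and WT pairs, which contain none of the untreated peritoneal libraries, showed which sizes recurred. Apart from Slc6a8 and genes with copies, 8 protein-coding genes were 2-fold lower in the untreated peritoneal pair. Of these, 7 were also lower in the IFN-gamma pair, 6 of them at least 1.5-fold (4.19% of all genes there) and 2 at least 2-fold (0.763%). In the bone marrow-derived pair 7 of 8 were lower and none reached 1.5-fold (0.931%) or 2-fold (0.098%). Of the 4 genes that were 2-fold higher, 2 were measured in the IFN-gamma pair and both were 2-fold higher (1.65%); 3 were measured in the bone marrow-derived pair, all slightly higher and none 2-fold (0.0367%). Over all genes in both, the sign matched the IFN-gamma pair for 64.1% of 7040 and the bone marrow-derived pair for 45.6% of 7202. These ratios were not centred. The trend with transcript length and GC content ran the same way in both peritoneal pairs and the other way in the bone marrow-derived pair. Its part in these shares was not tested.

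At 1.5-fold the lists overlapped in part. These counts leave out Slc6a8 but keep non-coding genes and genes with copies. Rpl14-ps1 (log2 ratios 5.34 and 2.68) and H3c15 (2.68 and 0.97), which cannot be read alone, are among the higher genes shared with the IFN-gamma pair. Of the 33 genes higher in the untreated peritoneal pair and measured in both, 15 were higher in the IFN-gamma pair, which is 45.5% of the 33 and 8.29% of the 181 that were higher there among the 7040 genes in both. Over all 7470 genes of the IFN-gamma pair 302 were higher (4.04%) and 313 lower (4.19%). Of the 63 lower genes, 28 were shared, 44.4% of the 63 and 10.1% of 278. With the bone marrow-derived pair none of 31 higher genes was shared, of 8 there, and 1 of 66 lower genes, which is 1.52% of the 66 and 2.78% of the 36 there. Over all 8165 genes of that pair 0.184% were higher and 0.931% lower. Libraries of one genotype may share animals, so this recurrence was not counted as replication.

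**Figure D5:**
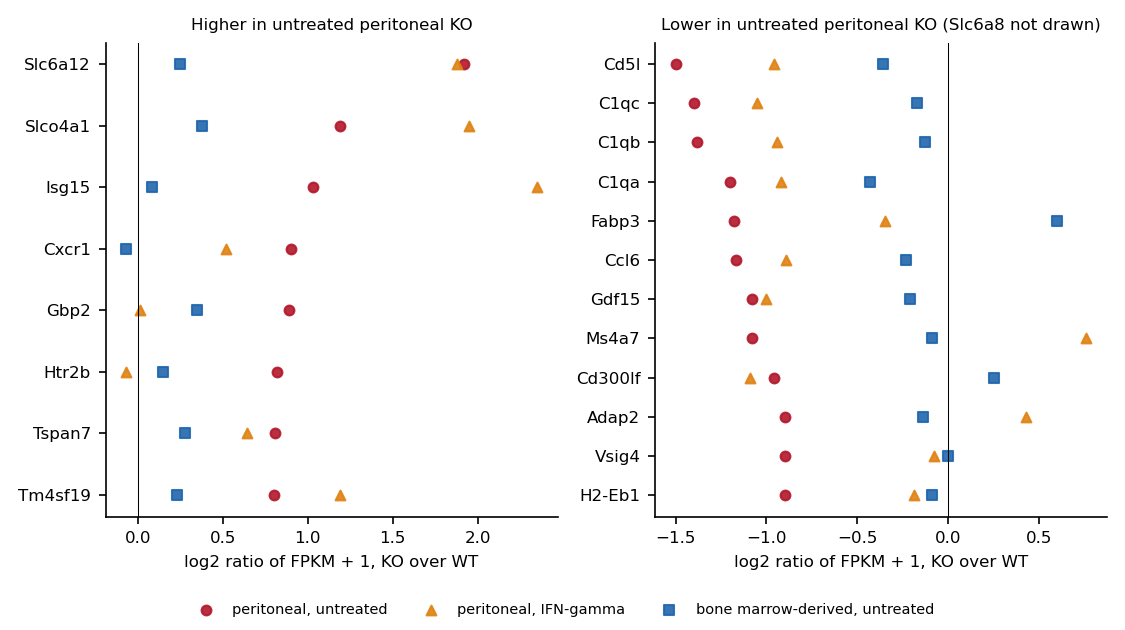
Log2 ratio of FPKM + 1, KO over WT, of named genes without copies in untreated peritoneal (red circles), IFN-gamma-treated peritoneal (orange triangles) and untreated bone marrow-derived macrophages (blue squares); left, genes higher in the untreated peritoneal KO library, right, genes lower in it. Red and orange points lie on the same side for most genes, with Ms4a7, Adap2 and Htr2b on opposite sides, and the blue points lie near 0 for most.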

How the data were processed

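Expected counts and FPKM values per gene were used as the authors deposited them; the submitters' processing notes name Bowtie2 2.2.5, RSEM (version not stated) and mm10. The deposited expected counts were whole within 0.005 for 77.6% of genes in KO and 77.4% in WT. Nothing in the deposited FPKM scales one library to another, and a gene not listed in a library was set to 0. The labels do not say whether strand was kept. Symbols and positions came from the RefSeq annotation of GRCm38.p6 for 17693 of 17742 genes, 39 kept the deposited symbol and 10 had none. GENCODE M21 gave the GC content of transcripts and the exonic bases shared between genes.

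Ratios were log2 of FPKM + 1, KO over WT, over genes of at least 5 FPKM in either library. Expected counts were rounded for the count ratios. Named genes are all protein-coding genes at least 2-fold apart, then the next until 15 were named in each direction, and in each list the 2 to 4 members with the largest ratio or the highest FPKM. Other genes named were chosen after their values were seen, to show the range, regulators or markers of a list. The genes, the 54 lists (1077 entries, 686 measured) and the rules were chosen with earlier results of these data known. Alternatives were other pseudocounts, filters and scalings (TMM from edgeR 4.0.16); centring by GC and length and leaving out copies were added after seeing the data. The IL-4-treated libraries were not used here, and some genes that meet the naming rule are not reported here. Computing used Python 3.11.15, pandas 2.3.3, scipy 1.17.1 and R 4.3.3.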

Additional observations from a re-analysis of the deposited data

Results flagged for a closer look

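These 3 genes moved in opposite directions in pairs of different treatment or cell type, and none of these differences was tested. Ms4a7 had a log2 ratio of -1.08 in the untreated peritoneal pair and 0.76 in the IFN-gamma pair, where it was at 21.4 FPKM in KO and 12.2 FPKM in WT. Fabp3 had a log2 ratio of -1.18 in the untreated peritoneal pair and 0.60 in the untreated bone marrow-derived pair, where it was at 13.1 FPKM in KO and 8.31 FPKM in WT. Hba-a2 had a log2 ratio of 1.96 in the untreated peritoneal pair (89 counts in KO, 18 in WT) and -0.78 in the IFN-gamma pair, where it was at 8.65 FPKM in KO and 15.6 FPKM in WT; it is nearly identical to Hba-a1.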

How the results depend on the processing

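The 12 higher and 13 lower genes are counts that depend on the low end of expression. The count of lower genes was 20 with a pseudocount of 0.1 FPKM, 8 with one of 5 FPKM, 23 with a limit of 1 FPKM or with no limit, and 7 with a limit of 10 FPKM. The count of higher genes was 24 with a limit of 1 FPKM or with no limit, and 5 without copies and overlaps. The other 14 recomputed counts stayed within 1.5 times. Named genes gave 298 ratios that stayed within their counting intervals and 12 that did not, 8 of them with the pseudocount of 5 FPKM. None changed sign. Many of the 298 could not move, because a filter chooses genes and leaves their ratios as they were. These were 30 with a limit of 1 FPKM, 18 with one of 10 FPKM and 30 with no limit. A further 30 came from protein-coding genes only and 22 from leaving out copies and overlaps. List medians gave 443 values that moved by less than their spread and 7 that moved further, 3 of them for ribosomal protein genes; the median of leukocyte integrins was -0.01 after centring by GC and length, against 0.11 without, and the cause was not tested. Medians near 0 changed sign with the same centring, such as those of HIF targets (-0.04, against 0.05 without) and glycolysis (0.02, against -0.08 without). With a limit of 10 FPKM the medians of type I interferon genes (-0.14, against 0.12), chemokines (-0.18, against 0.02) and IL-4 targets (0.01, against -0.09) changed sign, and with no limit that of NF-kB targets (-0.03, against 0.10). No paired analysis was possible because every group holds 1 library. Without replicates the error between cultures is unknown, and the intervals given cover counting error only.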

Other observations

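Beyond the lists above, some abundant macrophage genes stood apart by less than 1.5-fold. The ferritin genes were among the most abundant mRNAs, Fth1 at 15952 FPKM in KO and 20393 FPKM in WT and Ftl1 at 11419 FPKM in KO and 15112 FPKM in WT, with log2 ratios of -0.35 and -0.40; centring by GC and length brought them to -0.21 and -0.18. Slc11a1, the iron and manganese exporter of the phagosome, was at 174 FPKM in KO and 231 FPKM in WT. Of 10 measured genes of iron handling 7 were lower, with a median of -0.09. Lysosomal genes had no common direction, with 11 of 30 higher and a median of -0.04. Ctsk, a collagen-degrading protease, was at 373 FPKM in KO and 276 FPKM in WT, and Hexa, a hexosaminidase, at 536 FPKM in KO and 717 FPKM in WT.

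Genes of lipid handling were split as well. The fatty acid-binding protein genes Fabp4 and Fabp5 were lower, Fabp4 at 401 FPKM in KO and 551 FPKM in WT and Fabp5 at 970 FPKM in KO and 1350 FPKM in WT, and their log2 ratios of -0.46 and -0.48 were -1.27 and -1.06 in the IFN-gamma pair. The lipid droplet gene Plin2 was at 1242 FPKM in KO and 1020 FPKM in WT, and the scavenger receptor gene Cd36 at 714 FPKM in KO and 554 FPKM in WT. The mitochondrial carrier gene Ucp2 was at 179 FPKM in KO and 284 FPKM in WT, and its log2 ratio of -0.67 was -0.73 in the IFN-gamma pair and -0.10 in the bone marrow-derived pair. Among Toll-like receptor genes 12 of 20 measured were higher, with a median of 0.04; Unc93b1, which brings the endosomal receptors to their compartment, was at 148 FPKM in KO and 228 FPKM in WT (log2 ratio -0.62). Of the leukocyte integrins, Itga6 was at 4.27 FPKM in KO and 8.28 FPKM in WT and Itgax, which encodes CD11c, at 305 FPKM in KO and 227 FPKM in WT.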
